A study of Mus musculus with 12 samples.

Results

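The 8 genes described here are Foxo1, Foxo3 and Foxp1 of the forkhead family, Tcf3, Tcf4 and Tcf12, which encode the E proteins E2A, E2-2 and HEB, and Id2 and Id3, which encode inhibitors of the E proteins. They were taken by name, as regulators associated with the dark zone of the germinal centre (GC), and no cut on a measured value was used. Earlier results of these data were known when they were chosen. Each had 1 probe set on the array, and all 8 passed the filter on dim genes, among 19938 genes with a probe set of their own and 11206 tested.

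RNA was measured in donor B cells sorted from the spleens of female mice. SwHEL B cells, which carry a receptor for hen egg lysozyme and the CD45.1 marker, had been given to CD45.2 C57BL/6J hosts whose immunization used the lysozyme mutant HEL3x on sheep red blood cells. On day 10 the donor-derived GC fraction (IgG1+, CD38 low) was divided by zone and by affinity. DZ_high and DZ_low are dark zone cells (CXCR4 high, CD86 low) of high and of low affinity, and LZ_high and LZ_low are light zone cells (CD86 high, CXCR4 low) of high and of low affinity, with 3 arrays in each of these 4 groups. All groups thus share the transferred receptor, the antigen, the day and the host strain, and no group of unimmunized mice or of non-GC B cells is among the 12 arrays. How affinity was gated is not in the labels, nor is whether each array stands for its own animal, so the spread that the p-values rest on may be a technical one. The descriptions carry 3 suffixes, each once in every group, and arrays with the same suffix are called a matched set (1 to 3) below. Values are log2 RMA expression, on which a difference of 1 is a doubling of the signal. Fewer cells that express a gene and less RNA in each cell cannot be told apart in such bulk samples.

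FOXO factors bind a forkhead motif in DNA and are held out of the nucleus when the kinase AKT, acting downstream of PI3K, phosphorylates them. FOXO1 is known as a factor that the dark zone needs, and FOXP1, a forkhead repressor, is known for its role in B cell development and for being lower in GC than in naive B cells. E proteins bind the E-box motif as dimers through a basic helix-loop-helix domain. ID proteins have the helix-loop-helix but lack the basic region, so a dimer with an ID protein does not bind DNA. All of these are acts of proteins, and the arrays measure RNA.

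The arrays had medians of 5.57 to 5.72 and pair correlations of 0.872 to 0.986, and no 2 columns were identical. On the first principal component all 4 arrays of set 3 had scores of 12.5 to 52.9, against -26.4 to -6.7 for the rest, and the mean correlation to other arrays was lowest for LZ_high replicate 3, at 0.897. The B cell markers Cd79a (9.42 to 11.14) and Ms4a1 (10.52 to 11.33) and the GC factor Bcl6 (9.38 to 10.29) lay above the array median on all 12 arrays, while the myeloid markers Csf1r (4.26 to 4.99) and Itgax (4.21 to 4.77) lay below it on all 12. Other myeloid markers were present: Cd68 lay above the median on all 12 arrays (6.76 to 8.15). The granulocyte genes S100a8 and S100a9 followed the matched set in part. In set 2 they were 8.5 to 9.6 and 9.58 to 10.37, highest in DZ_high replicate 2. In set 3 they were 6.06 to 8.63 and 6.45 to 9.82, and in set 1 5.01 to 6.55 and 6.07 to 7.68. The T cell marker Cd3e lay between 5.2 and 6.35. In the zone comparison below, 5 of 14 tested dark zone markers fell in light zone cells (Ccnb2, Myl4, Pafah1b3, Polh and Tent5c) and 7 of 19 light zone markers rose (Batf, Cd83, Cd86, Egr2, Fcer2a, Nfkbia and Slamf1), with list medians of -0.81 and 0.74, where limma called 0.419% of all tested genes. With the matched set as a block 9 and 9 passed, beside 1.2% of all tested genes. With 1 array left out 1 to 6 of the dark zone and 4 to 7 of the light zone markers did, beside 12 to 67 of the 11206 tested genes. Cd86 was itself used in the sort.

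In the comparison of light with dark zone cells, Foxp1 was the 1 gene of the 8 that passed the test, and it was lower in the light zone. Its difference was -0.58 ± 0.11 on the log2 scale (SE, n = 6 arrays per zone), a 1.49-fold lower signal, with a limma adjusted p of 0.0453. Across all tested genes the same test called 0.419% (47 genes), so 1 of 8 stands beside that background. Foxo3 and Id2 had higher values in the light zone, by 0.46 ± 0.14 and 0.86 ± 0.25, and did not pass (adjusted p = 0.291 and 0.26). The values of Foxo1, Tcf3, Tcf4, Tcf12 and Id3 differed by 0.33 or less in either direction. Their 95% intervals all hold 0 in this fit, which leaves the matched set out. At an unadjusted p below 0.05, 3 of the 8 (Foxo3, Foxp1 and Id2) stand beside 7.06% of all tested genes, both in the same fit. With the matched set as a block the SE of Tcf3 fell from 0.29 to 0.15. Tcf3 was then past that unadjusted level too, and it did not pass after adjustment.

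**Figure D1:**
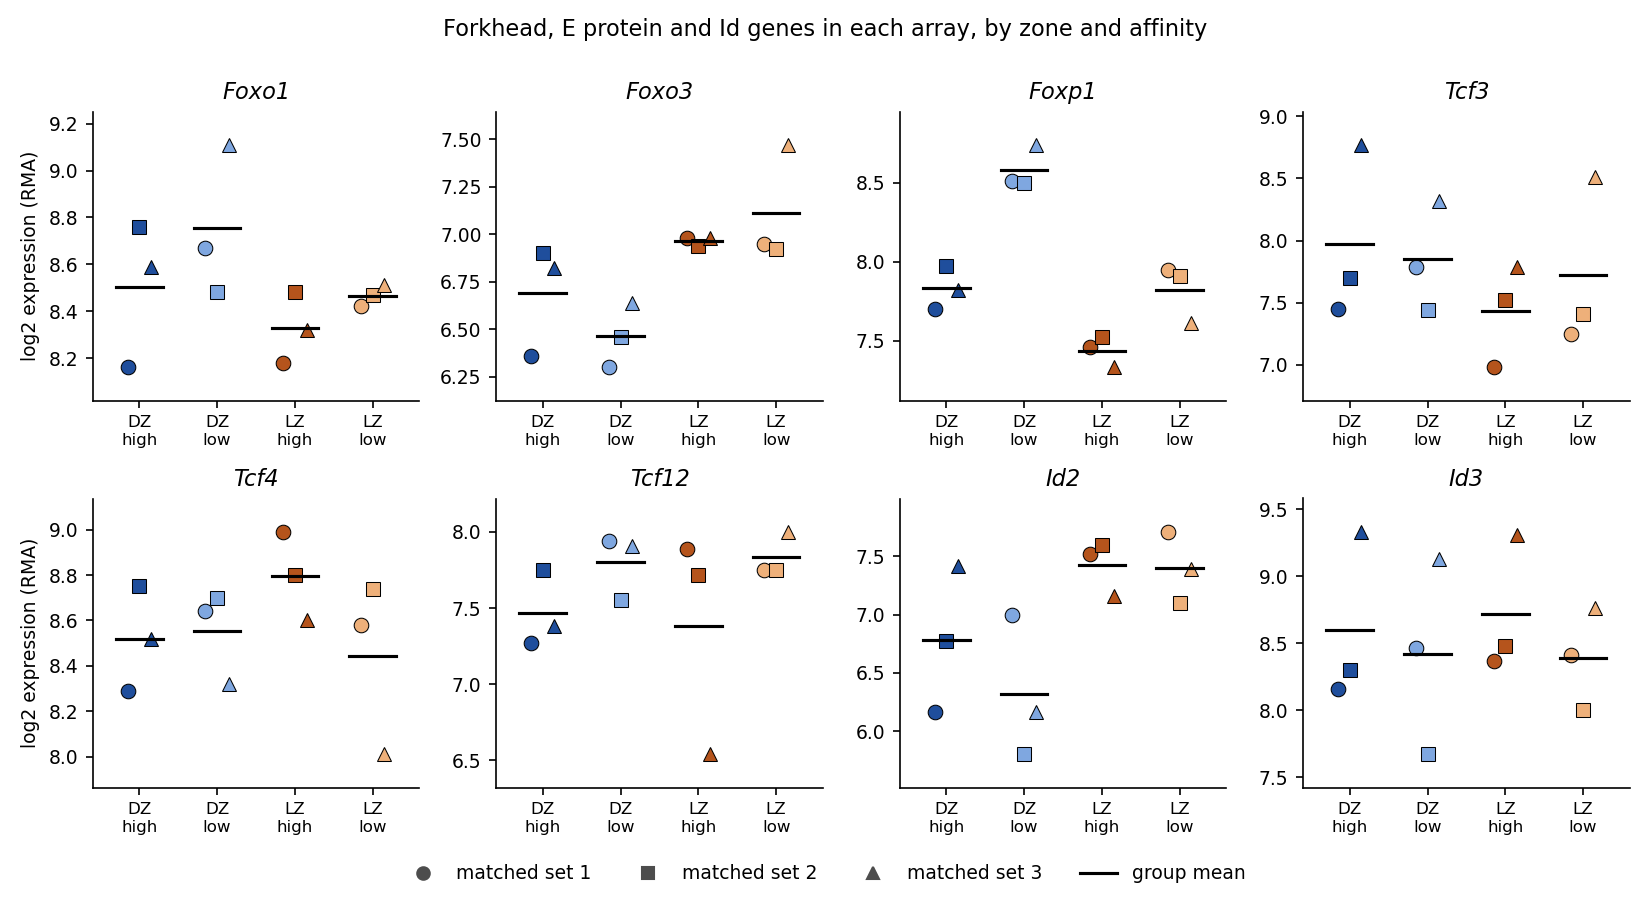
Log2 RMA expression (vertical axis, own scale for each gene) of the 8 genes in each of the 12 arrays, by group (horizontal axis); symbols give the matched set and the line the mean of 3 arrays. Foxp1 is highest in DZ_low (8.5 to 8.74) and lowest in LZ_high (7.33 to 7.52), and every light zone value of Foxo3 (6.92 to 7.47) is above every dark zone value (6.3 to 6.9).

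Foxp1 has 3 annotated promoters in RefSeq, build GRCm38.p6, and the 250 bases before each start are shown because it is the gene that passed the zone test. Each runs 5′ to 3′ on the gene's strand up to the base before the start, and the capitals mark an E-box CAGGTG read on the other strand, at position -133 from the third start. Which start these cells used was not measured.
Foxp1 promoter 1, chr6:99520994-99521243, minus strand: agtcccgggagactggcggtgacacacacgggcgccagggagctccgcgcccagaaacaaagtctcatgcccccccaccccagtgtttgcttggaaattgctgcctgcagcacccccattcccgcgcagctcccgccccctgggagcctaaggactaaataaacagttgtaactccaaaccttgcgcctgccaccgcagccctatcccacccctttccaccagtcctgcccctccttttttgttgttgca
Foxp1 promoter 2, chr6:99266516-99266765, minus strand: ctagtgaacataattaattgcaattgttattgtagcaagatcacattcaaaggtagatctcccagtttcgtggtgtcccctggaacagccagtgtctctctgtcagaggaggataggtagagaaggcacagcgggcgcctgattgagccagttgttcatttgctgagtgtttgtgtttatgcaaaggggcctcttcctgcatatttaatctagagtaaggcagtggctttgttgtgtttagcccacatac
Foxp1 promoter 3, chr6:99028299-99028548, minus strand: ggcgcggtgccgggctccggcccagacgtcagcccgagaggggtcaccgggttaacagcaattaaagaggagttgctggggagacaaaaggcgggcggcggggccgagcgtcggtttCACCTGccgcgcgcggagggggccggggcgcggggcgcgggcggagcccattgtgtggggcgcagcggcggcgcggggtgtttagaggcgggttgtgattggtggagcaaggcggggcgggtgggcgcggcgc

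Motifs were searched on both strands in the 250 upstream bases. The E-box CAGGTG was in 17.2% of 32841 promoters of 27018 genes, and in 1 of the 11 promoters that 7 of the 8 genes had in the table, the third of Foxp1. The E-box CAGCTG was in 13.0% of all promoters and in 2 of the 11, the first of Tcf12 and that of Id2. The wider E-box pattern CANNTG, with any base at N, was in 66.2% of all promoters and in 8 of the 11. Those 8 include all 3 of Foxp1. Only the forms CAGGTG and CAGCTG are in capitals in the sequences shown. The forkhead motif TGTTTAC was in 3.2% of all promoters and in 0 of the 11. Its shorter core TGTTT was in 46.4% of all promoters and in 5 of the 11, among them all 3 of Foxp1. These matches describe the letters in the windows and say nothing of binding.

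Foxp1 (probe set 10546661) had values of 7.7, 7.97 and 7.82 in DZ_high and of 8.51, 8.5 and 8.74 in DZ_low, for matched sets 1, 2 and 3. In the light zone it had 7.46, 7.52 and 7.33 in LZ_high and 7.95, 7.91 and 7.61 in LZ_low. The 3 arrays of DZ_low were the highest of all 12 and the 3 of LZ_high the lowest, while DZ_high and LZ_low shared a range. The group means were 8.59 ± 0.14 (SD, n = 3) in DZ_low, 7.83 ± 0.14 in DZ_high, 7.82 ± 0.19 in LZ_low and 7.44 ± 0.1 in LZ_high. The steps in this order were 0.76, 0.01 and 0.39, against a pooled SD of 0.14, so the middle groups did not differ beyond their spread and the outer ones lay apart from their neighbours.

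The zone difference of Foxp1 was negative in 6 of 6 matched pairs, beside 3.74% of all tested genes. It was -0.24, -0.45 and -0.49 at high affinity and -0.56, -0.59 and -1.13 at low affinity. The ranges of the zones did not overlap within either affinity, beside 7.38% of all tested genes at high and 9.26% at low affinity. The fitted difference was -0.39 ± 0.15 at high affinity (limma adjusted p = 0.91) and -0.76 ± 0.15 at low affinity (adjusted p = 0.156), so neither passed on its own. The interaction, the affinity difference in the light zone minus that in the dark zone, was 0.37 ± 0.21 (95% interval -0.1 to 0.84, adjusted p = 1).

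The call of Foxp1 rests close to the threshold. With the matched set as a block the limma adjusted p was 0.0373, and with any 1 of the 12 arrays left out it lay between 0.0651 and 0.129, past the threshold in 0 of 12 fits, while the difference stayed between -0.61 and -0.52. Without matched set 3 it was -0.46 (adjusted p = 0.141).

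Foxp1 was also the gene of the 8 with the smallest p for affinity, with lower values in high-affinity cells. The difference was -0.57 ± 0.11 over both zones (95% interval -0.8 to -0.34), and its unadjusted p of 0.000211 ranked 5 of 11206. It was negative in 6 of 6 matched pairs, beside 3.95% of all tested genes. The limma adjusted p was 0.462, and no gene passed in this comparison (0% called, and 5.25% at an unadjusted p below 0.05). In the dark zone the difference was -0.76 ± 0.15, with pairs at -0.81, -0.53 and -0.93. It was -0.39 ± 0.15 in the light zone, with pairs at -0.49, -0.39 and -0.28. Plasma cell markers lay mostly on 1 side in the dark zone comparison: 7 of 8 tested had values above 0 (median 0.46, 0 passed), as did 5643 of all 11206 tested genes. The mean level of the 10 plasma cell markers was 7.54 to 7.63 in DZ_high and 7.08 to 7.38 in DZ_low, without overlap. No background was computed for such list means. Other lists lay mostly on 1 side too: granulocyte (7 of 7 above 0, median 0.46), erythroid (3 of 3 above 0, 0.18) and B cell markers (8 of 9 below 0, -0.15). Of the dark zone markers 11 of 14 were above 0 (median 0.15), and of the light zone markers 12 of 19 were below 0 (-0.11). The sort gene Cd86 was lower in DZ_high (9.41, 9.58 and 9.27) than in DZ_low (10.28, 10 and 10.41). Those ranges did not overlap, beside 7.16% of all tested genes. Cxcr4, the other sort gene, overlapped (10.69 to 11.55 in DZ_high and 10.73 to 11.12 in DZ_low). The part of these lists and of the sort genes in the result was not tested. The 2 affinities did not overlap in either zone, for which Foxp1 was 1 of 8 in each, beside 7.16% of all tested genes in the dark zone and 8.81% in the light zone.

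With the mean of each matched set removed, the genes most like Foxp1 over the 12 arrays, among 10469 searched, were Tcp11l2 (r = 0.929), Lgr5 (0.923) and Insr (0.92). Lgr5 encodes a receptor for R-spondins and Insr the insulin receptor. Their light minus dark zone differences were -0.77, -0.68 and -0.67, and none passed (limma adjusted p = 0.276, 0.0533 and 0.906). With the set means left in, r with Foxp1 was 0.924 (Tcp11l2), 0.908 (Lgr5) and 0.63 (Insr). For such genes named below, it lay between 0.18 (St3gal6 with Tcf3) and 0.978 (Parp9 with Tcf12). All such correlations are descriptions over arrays that share groups and sets.

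Foxo3, a FOXO factor that AKT also phosphorylates, had 6.36, 6.9 and 6.82 in DZ_high and 6.3, 6.46 and 6.64 in DZ_low (sets 1 to 3). In the light zone it had 6.98, 6.94 and 6.98 in LZ_high and 6.95, 6.92 and 7.47 in LZ_low. All 6 light zone arrays were above all 6 dark zone arrays, though the nearest values were 6.9 and 6.92. It was the 1 gene of the 8 whose zones did not overlap, beside 0.991% of all tested genes. The difference of 0.46 ± 0.14 (95% interval 0.16 to 0.77, 1.38-fold) was positive in 6 of 6 pairs (4.54% of all tested genes were), with an unadjusted p of 0.00636 and limma adjusted p of 0.291, or 0.119 with the block.

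The zone difference of Foxo3 was 0.28 ± 0.2 at high affinity and 0.65 ± 0.2 at low affinity (limma adjusted p = 1 and 0.629). The pairs were 0.63, 0.04 and 0.16 at high affinity and 0.65, 0.46 and 0.83 at low affinity, so 2 of the high-affinity pairs were near 0. By affinity Foxo3 differed by 0.04 ± 0.14 over both zones (95% interval -0.27 to 0.34). The group order was LZ_low (7.12), LZ_high (6.97), DZ_high (6.69) and DZ_low (6.47), where the step of 0.28 between LZ_high and DZ_high was the one without overlap. The genes most like it were Ubqln1 (r = 0.953), Dhcr7 (0.935), an enzyme of cholesterol synthesis, and Klf12 (0.932), a Krüppel-like factor that itself rose in the light zone by 0.79 (limma adjusted p = 0.0371).

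Foxo1, whose protein keeps the dark zone programme, did not show a zone difference that passed the test. It had 8.16, 8.76 and 8.59 in DZ_high and 8.67, 8.48 and 9.11 in DZ_low, against 8.18, 8.48 and 8.32 in LZ_high and 8.42, 8.47 and 8.51 in LZ_low. The highest 4 of the 12 values were in the dark zone, but so was the lowest, and the zones overlapped. The light minus dark zone difference was -0.23 ± 0.14 (95% interval -0.54 to 0.08, limma adjusted p = 0.923), negative in 5 of 6 pairs. The spread was wider in the dark zone (SD 0.31, n = 6) than in the light zone (SD 0.12, n = 6). The difference by affinity was -0.19 ± 0.14 (adjusted p = 0.964). The genes most like Foxo1 were Kif3b (r = 0.966), a kinesin subunit, Ube4b (0.953), a ubiquitin ligase, and Rasa3 (0.952), a Ras GTPase-activating protein.

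**Figure D2:**
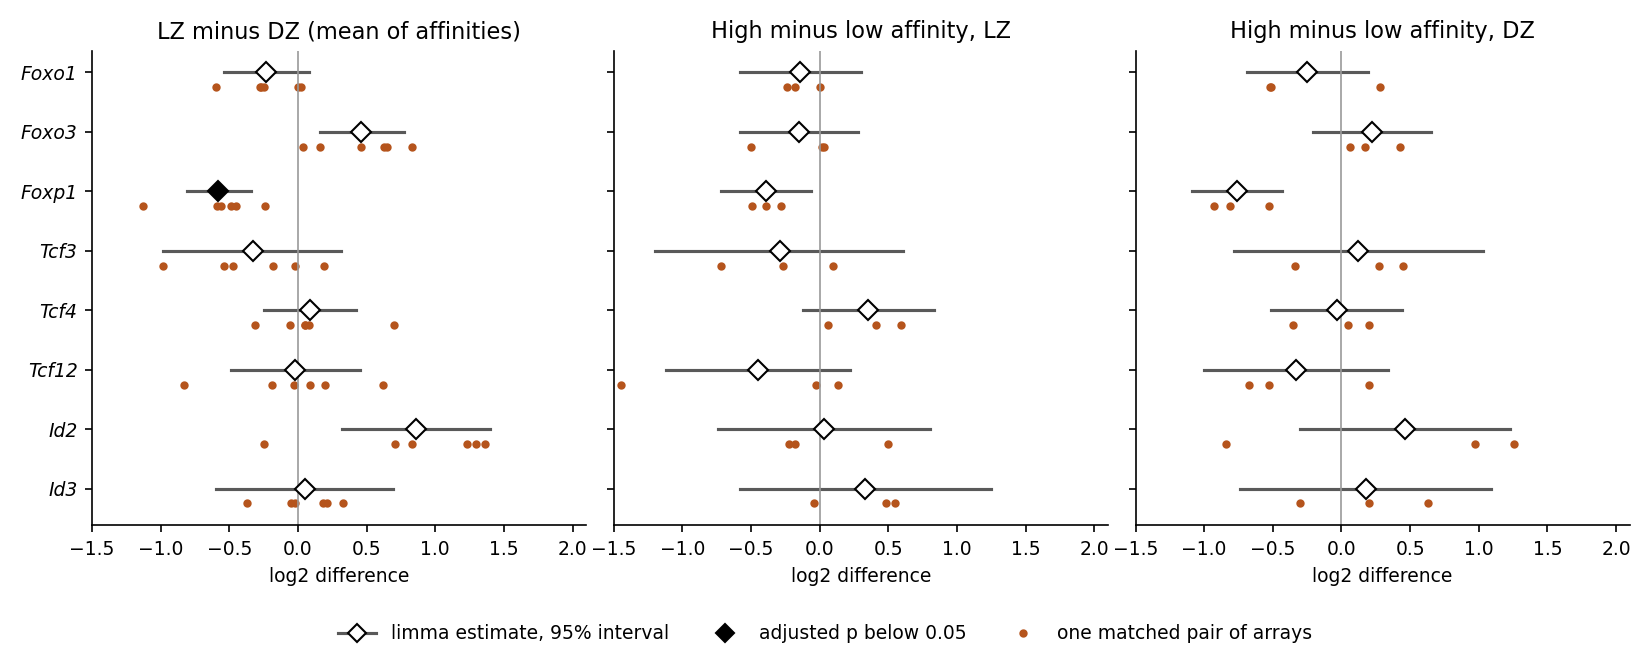
Log2 difference (horizontal axis) of each of the 8 genes for light minus dark zone and for high minus low affinity in each zone: diamonds are limma estimates with 95% intervals, filled where the adjusted p was below 0.05, and dots are single matched pairs. Foxp1 (-0.58) is the only filled diamond; its 6 zone pairs and its 3 affinity pairs in each zone are all below 0.

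None of the 3 E protein genes passed the test in any of the 7 comparisons. Tcf3, the main E protein gene of B cells, had 7.45, 7.7 and 8.77 in DZ_high and 7.79, 7.44 and 8.32 in DZ_low (sets 1 to 3). In the light zone it had 6.98, 7.52 and 7.79 in LZ_high and 7.25, 7.41 and 8.51 in LZ_low. Set 3 gave the highest value in every group. The zone difference was -0.33 ± 0.29 (95% interval -0.98 to 0.31, limma adjusted p = 0.999), negative in 5 of 6 pairs. With the block the SE fell to 0.15 and the unadjusted p to 0.0442, and the adjusted p was 0.438. At high affinity all 3 pairs were negative (11.5% of all tested genes), with a difference of -0.54 ± 0.41, and at low affinity it was -0.12 ± 0.41. With the block the SE was 0.21 at each affinity, and the limma p at high affinity was 0.0245 (adjusted p = 0.509).

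Tcf4, the E protein gene known for plasmacytoid dendritic cells and also expressed in B cells, had 8.29, 8.75 and 8.52 in DZ_high and 8.64, 8.7 and 8.32 in DZ_low. It had 8.99, 8.8 and 8.6 in LZ_high and 8.58, 8.74 and 8.01 in LZ_low. The 4 groups overlapped, with means of 8.45 to 8.8. The zone difference was 0.09 ± 0.15 (95% interval -0.25 to 0.42). The high-affinity array of the light zone was above its low-affinity partner in 3 of 3 pairs (15.1% of all tested genes), with a difference of 0.35 ± 0.21 (95% interval -0.12 to 0.83, limma adjusted p = 0.999). In the dark zone that difference was -0.03 ± 0.21.

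Tcf12 had 7.27, 7.75 and 7.38 in DZ_high and 7.94, 7.55 and 7.91 in DZ_low, against 7.89, 7.72 and 6.54 in LZ_high and 7.75, 7.75 and 8 in LZ_low. The value of 6.54, in LZ_high replicate 3, was far below the next, 7.27, and that array also stood apart over all genes. The zone difference was -0.02 ± 0.21 (95% interval -0.49 to 0.45), with 3 pairs on each side of 0, and with the block and without that array it was 0.2. The affinity difference was -0.39 ± 0.21 over both zones and -0.45 ± 0.3 in the light zone (limma adjusted p = 0.961 and 0.999). Pairs of 0.13, -0.03 and -1.45 gave the light zone value, and with the block and without LZ_high replicate 3 it was 0.

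The genes most like the E protein genes over the 12 arrays, set means removed, were St3gal6 (r = 0.957), Rabac1 and Wbp2 for Tcf3, Supv3l1 (0.957), Diaph3 and Txlng for Tcf4, and Dnajb4 (0.987), Acsl4 and Parp9 for Tcf12. With the set means left in, r in the same order was 0.18, 0.953 and 0.463 for Tcf3. It was 0.575, 0.936 and 0.826 for Tcf4, and 0.91, 0.912 and 0.978 for Tcf12. The high values for Tcf12 include LZ_high replicate 3, at which it was lowest. None of these 9 genes passed in the zone comparison, where their limma adjusted p lay between 0.48 and 0.999.

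Of the inhibitors, Id2 had the largest zone difference among the 8 genes, and it did not pass the test. Id2 restrains E proteins and is known as a factor of innate lymphoid and natural killer (NK) cells. Its upstream bases are shown because they hold an E-box CAGCTG, in capitals, at position -196 from the start, which reads the same on both strands.
Id2 promoter, chr12:25096093-25096342, minus strand: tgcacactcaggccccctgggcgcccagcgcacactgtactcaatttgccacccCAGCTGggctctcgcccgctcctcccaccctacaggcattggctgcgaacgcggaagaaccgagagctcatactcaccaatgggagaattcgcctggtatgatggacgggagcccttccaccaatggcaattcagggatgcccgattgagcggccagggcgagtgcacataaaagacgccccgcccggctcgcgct

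Id2 had 6.16, 6.77 and 7.42 in DZ_high and 7, 5.8 and 6.16 in DZ_low (sets 1 to 3), against 7.52, 7.6 and 7.16 in LZ_high and 7.71, 7.1 and 7.39 in LZ_low. The light zone arrays lay between 7.1 and 7.71, and the dark zone arrays spread from 5.8 to 7.42. The light minus dark zone difference was 0.86 ± 0.25 (95% interval 0.32 to 1.4, 1.82-fold), with an unadjusted p of 0.00499 and a limma adjusted p of 0.26, or 0.187 with the block. It was positive in 5 of 6 pairs, the exception being set 3 at high affinity (-0.25). At high affinity it was 0.64 ± 0.35 and at low affinity 1.08 ± 0.35 (limma adjusted p = 1 and 0.708). At low affinity the zones did not overlap, beside 9.26% of all tested genes.

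The array against the trend, DZ_high replicate 3, had the highest dark zone value of Id2, 7.42. It also had the highest mean level of the 13 NK and innate lymphoid markers, 5.36, with Nkg7 at 8.37 (4.65 to 6.33 on the other arrays) and Gzmb at 6.16 (4.07 to 4.61). Other markers of the list were not highest there: Gzma was 7.27 on it against 8.11 in LZ_low replicate 3 and 8.06 in DZ_low replicate 3, where Id2 was 6.16. Il2rb was 6.19 against 6.75 in LZ_low replicate 3, and Klrd1 and Prf1 were highest in DZ_low replicate 3 (4.47 and 6.29). Of the 13 markers, 1 lay above the array median on all 12 arrays and 6 below it, and the receptor Ncr1 stayed between 3.84 and 4.46. Their summed level was 62.8 to 69.7 in DZ_high, 62.3 to 66.9 in DZ_low, 61.3 to 65.5 in LZ_high and 59.2 to 67.6 in LZ_low. Their part in the result was not tested. Without DZ_high replicate 3 the zone difference of Id2 was 1.02 ± 0.23 (limma adjusted p = 0.137). It was 1.03 ± 0.23 without DZ_low replicate 1 (adjusted p = 0.155), whose mean level of these markers was 4.83. Over all 12 fits without 1 array it lay between 0.71 and 1.03.

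By affinity, Id2 differed by 0.03 ± 0.35 in the light zone and 0.46 ± 0.35 in the dark zone, where the pairs were -0.84, 0.97 and 1.26. The genes most like it were Nup210 (r = 0.962), a nuclear pore protein, Slc7a7 (0.929), an amino acid transporter subunit, and Srebf2 (0.915), a regulator of cholesterol synthesis. None of the 3 passed in the zone comparison.

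Id3, the other inhibitor, had 8.16, 8.3 and 9.33 in DZ_high and 8.46, 7.67 and 9.13 in DZ_low, against 8.37, 8.48 and 9.31 in LZ_high and 8.41, 8 and 8.76 in LZ_low. The groups overlapped fully, with means of 8.39 to 8.72. The zone difference was 0.05 ± 0.29 (95% interval -0.6 to 0.69, limma adjusted p = 0.999), with 3 pairs on each side of 0. By affinity it was 0.26 ± 0.29, or 0.33 ± 0.42 in the light zone and 0.18 ± 0.42 in the dark zone. With the block its SE in the zone comparison fell from 0.29 to 0.14. The genes most like it were Crlf2 (r = 0.948), a cytokine receptor chain, Pdk3 (0.918), a pyruvate dehydrogenase kinase, and Tmem256 (0.907).

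Id3 and Tcf3 differed more between the matched sets than between zones or affinities. Id3 had a mean of 9.13 in set 3, against 8.35 and 8.11 in sets 1 and 2, and its 4 set 3 values (8.76 to 9.33) lay above all 8 others (7.67 to 8.48). Tcf3 had 8.35 in set 3 against 7.37 and 7.52, and its ranges met at 7.79. Id3 was the 1 gene of the 8 whose set 3 values did not overlap with the rest, beside 11% of all tested genes. The other 6 genes differed between set 3 and the rest by -0.32 (Tcf4) to 0.25 (Foxo3), and Foxp1 by -0.06.

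**Figure D3:**
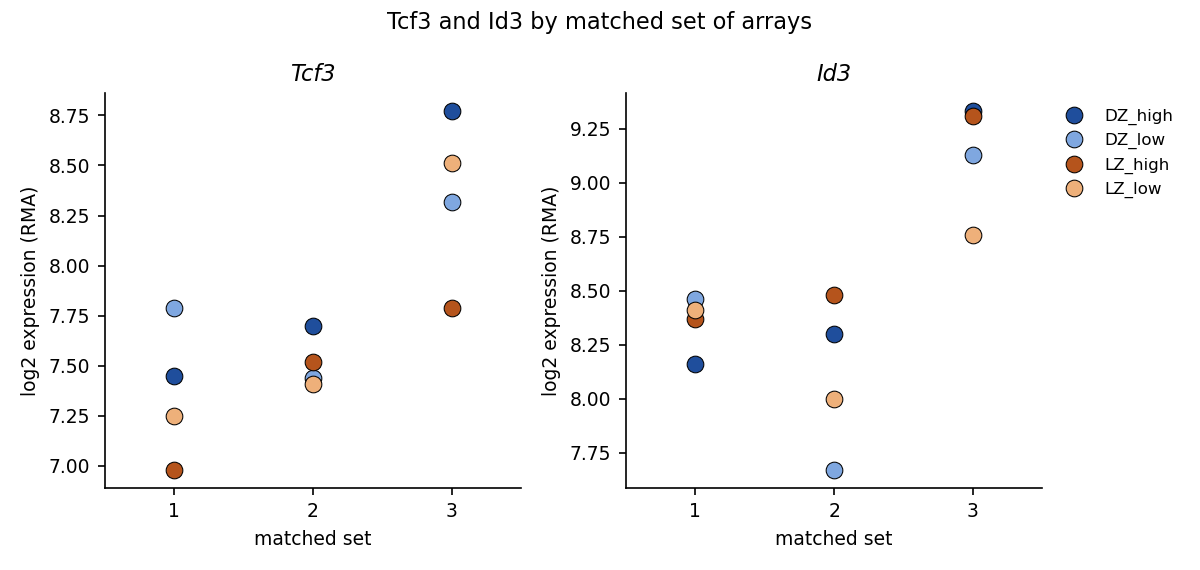
Log2 RMA expression (vertical axis) of Tcf3 and Id3 in the 12 arrays by matched set (horizontal axis), coloured by group. The set 3 means, 8.35 for Tcf3 and 9.13 for Id3, are 0.91 and 0.9 above the mean of the other sets, which is more than the difference between zones in either gene.

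The 8 genes varied together in part. With set means removed, Foxo1 and Foxp1 correlated at r = 0.82 over the 12 arrays (0.72 with the set means left in), and Foxo3 and Id2 at 0.76 (0.65). Foxp1 ran opposite to Foxo3 (-0.66) and to Id2 (-0.62). Tcf3 and Id3 correlated at 0.7 with the set means left in and at 0.03 with them removed. These values describe 12 arrays that fall into 4 groups, and the groups' own differences enter them.

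By affinity, none of the 8 genes passed in the light zone, in the dark zone, over both zones or in the interaction, and neither did any other tested gene (0% called by limma in each, without or with the block). A random block and a second quantile normalization each called 1 gene over both zones, and array weights called 52 there and 103 in the light zone. At an unadjusted p below 0.05 the test called 4.16% of genes in the light zone, 2.2% in the dark zone and 1.58% for the interaction. Of the 8, Foxp1 was past that level in each zone and none was for the interaction. In the light zone the estimates of the 7 genes other than Foxp1 lay between -0.45 (Tcf12) and 0.35 (Tcf4), and in the dark zone between -0.33 (Tcf12) and 0.46 (Id2). Within each affinity the zone test called 4 genes (0.0357%), none of them among the 8. With the block it called 9 at high and 25 at low affinity, with array weights 146 and 40, and with only the groups compared 0 and 0. With 1 array left out it called 2 to 5 and 0 to 5. Foxo3 and Foxp1 were the 2 whose zones did not overlap at high affinity, beside 7.38% of all tested genes, and Foxo3, Foxp1 and Id2 were the 3 at low affinity, beside 9.26%.

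Genes around the 8 were set beside them as lists, described by counts and medians, where the median of all tested genes was 0 in the zone comparison. Of 22 other forkhead genes 15 were tested and 0 passed in the zone comparison, with a median of 0.05. The ones with the smallest p were Foxn3 (0.43, limma adjusted p = 0.877), Foxn2 (-0.26), Foxj2 (0.17) and Foxj1 (0.12). Of 18 other helix-loop-helix genes 14 were tested and 0 passed, with a median of 0.04. Those with the smallest p were Lyl1 (0.48), Hes1 (0.44, adjusted p = 0.637), a target of Notch signalling, Mxd4 (0.43) and Tfe3 (0.13).

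Of 28 FOXO target genes 22 were tested and 0 passed in the zone comparison, with a median of -0.05. Cxcr4, the chemokine receptor that holds cells in the dark zone and was used in the sort, was -0.63 ± 0.18 (limma adjusted p = 0.271) and passed with the block (0.0449). Bcl2l11, which encodes the pro-apoptotic protein BIM, was -0.68 ± 0.18 (adjusted p = 0.207) and lower in 6 of 6 pairs. Cat, which encodes catalase, was -0.43 ± 0.12 (adjusted p = 0.218), and Sesn1, a stress-response gene, was 0.39 (adjusted p = 0.433). By affinity in the light zone 18 of the 22 had values below 0 (5638 of all 11206 tested genes did), with a median of -0.3 against 0 for all tested genes, and none passed. In the dark zone it was 11 of 22, with a median of -0.01. Cell type lists also lay below 0 in the light zone, namely granulocyte (6 of 7, median -0.64), macrophage and dendritic (4 of 5, -0.48), T cell (5 of 5, -0.19) and B cell markers (8 of 9, -0.31), and their part in these values was not tested.

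Of 22 E protein target genes, a list that holds Foxo1 and shares Cxcr4 with the list above, 16 were tested and 0 passed, with a median of -0.03. Cxcr4 was again the 1 that passed with the block. Ptpn6, which encodes the phosphatase SHP-1, was 0.43 ± 0.14 (limma adjusted p = 0.34), Ebf1, an early B cell factor, was 0.42, and Vpreb3, a surrogate light chain-related gene, was -0.33.

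Of 28 genes of the PI3K and AKT pathway, which acts on FOXO proteins, 24 were tested and 0 passed in the zone comparison, with a median of 0.09. With the block 3 passed, beside 1.2% of all tested genes, namely Akt1, Inpp4b and Pik3ap1. Akt1 had 8.34, 8.49 and 9.48 in DZ_high and 9.22, 8.33 and 9.16 in DZ_low, against 7.8, 7.85 and 8.03 in LZ_high and 8.09, 7.81 and 8.22 in LZ_low. Its zones did not overlap, beside 0.991% of all tested genes, and its difference was -0.87 ± 0.22 (limma adjusted p = 0.174, or 0.0405 with the block).

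Inpp4b, a phosphatase of PI3K products, lay the other way. It had 6.65, 6.68 and 6.17 in DZ_high and 6.98, 6.72 and 6.01 in DZ_low, against 7.82, 7.64 and 7.11 in LZ_high and 7.28, 7.4 and 7.19 in LZ_low, without overlap. The zones of 0.991% of all tested genes did not overlap. The difference of Inpp4b was 0.87 ± 0.19 (limma adjusted p = 0.098, or 0.00784 with the block). Pik3ap1, an adaptor that brings PI3K to the B cell receptor complex, was 0.49 ± 0.12 (adjusted p = 0.185, or 0.0366 with the block), and its zones overlapped. Rptor, a subunit of mTORC1, was 0.33 ± 0.11 (adjusted p = 0.399). Sgk1 was too dim to be tested. By affinity in the light zone 18 of the 24 had values below 0, with a median of -0.21, and in the dark zone 14 of 24, with a median of -0.03, and none passed. The light zone value stands beside the same counts over all genes and cell type lists as that of the FOXO targets.

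**Figure D4:**
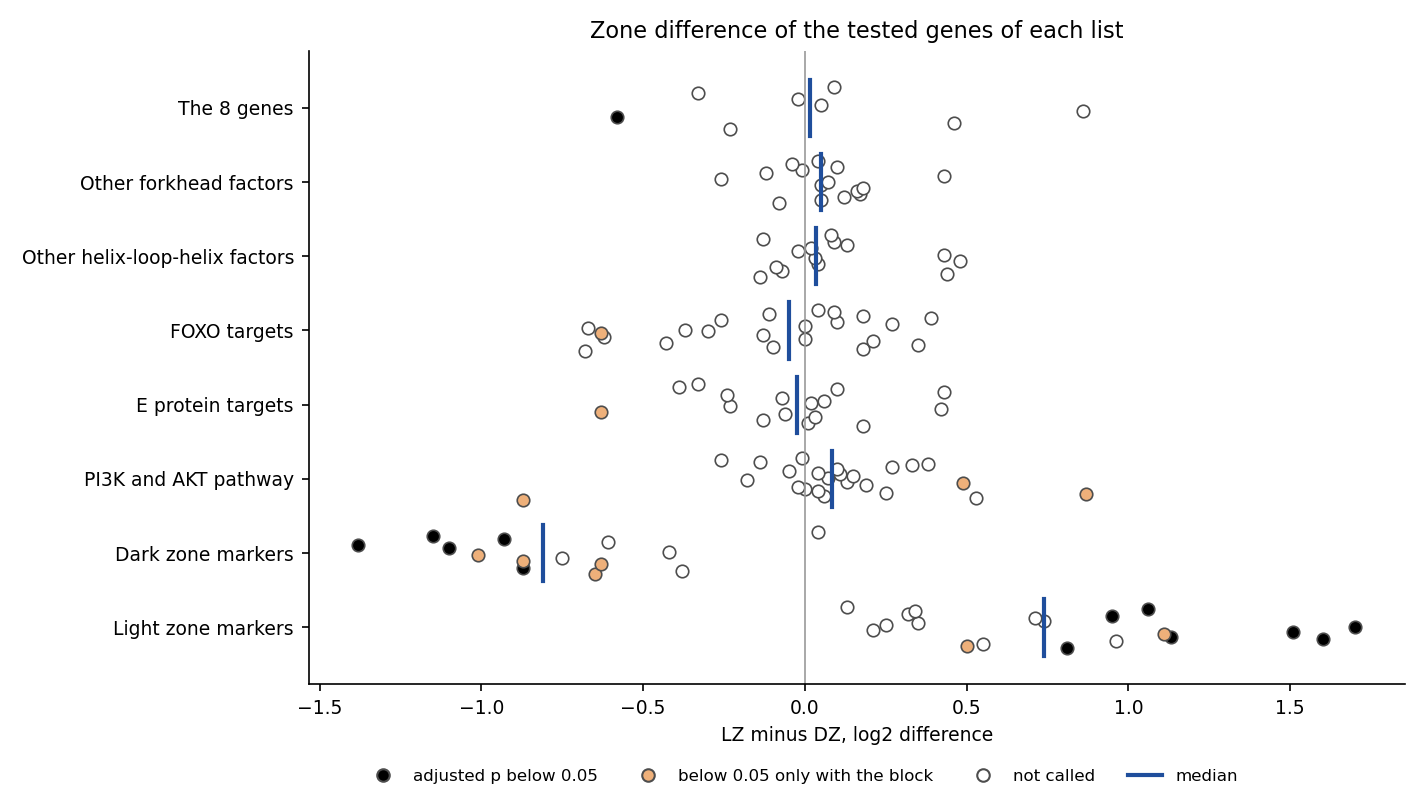
Light minus dark zone log2 difference (horizontal axis) of each tested gene of the lists (rows), filled black where the limma adjusted p was below 0.05 and orange where it was so only with the matched set as a block; the blue line is the list's median. The medians of the forkhead, helix-loop-helix, target and pathway lists lie between -0.05 and 0.09, those of the dark and light zone markers at -0.81 and 0.74.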

How the data were processed

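RNA from sorted GC B cells was amplified, biotin-labelled and hybridized to 12 arrays, per the labels. Per probe set, the authors deposited a log2 value from RMA; RMA and the build mm8 are named in the submitters' processing notes, and the log base was read from the range, 1.99 to 13.74. No depth applies to arrays, and their number limits the precision.

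Of 28853 probe sets 21789 had 1 gene symbol, and 21698 of these matched the reference gene table. A gene was its brightest single-symbol probe set. It was tested when at least 3 arrays were at or above their own percentile 50, which left 11206 genes and 8732 too dim. Group means were fitted with R 4.3.3 and limma 3.58.1 (7 two-sided contrasts, lmFit and eBayes), with Benjamini-Hochberg adjustment over all tested genes and a threshold of 0.05. The scripts were tested on simulated data.

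The genes and lists were chosen with earlier results of these data known. Named genes were the 8, list members that passed or else the 4 with the smallest p, the sort genes, defining cell type markers and the 3 protein-coding genes with the highest correlation to each of the 8.

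The suffix of the descriptions was taken to mark a batch or day that arrays share. With group means removed, 17 of 18 same-set pairs of arrays correlated above 0.1 (median 0.41, lowest -0.071, against a median of -0.32 for other pairs). The main values come from the fit that leaves the matched set out, and blocked values stand beside it where they change a call or a count of calls. Other alternatives were filters, normalizations, variance moderation, array weights, probe set rules, and fits without single arrays or set 3. Promoter sequences are RefSeq's, build GRCm38.p6; Tcf4 is not shown.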

Additional observations from a re-analysis of the deposited data

How the results depend on the processing

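Foxp1, light minus dark zone, stayed negative in every fit and lost its call in each of the 12 fits without 1 array and in 6 of 13 others: centring on the array median (-0.57, limma adjusted p = 0.0916), eBayes with trend and robust (-0.58, 0.116), without matched set 3 (-0.46, 0.141, blocked 0.148), and blocked fits without LZ_high replicate 3 (-0.56, 0.0504) or DZ_high replicate 3 (-0.57, 0.0933). It was called with the replicate block (0.0373), and the lowest adjusted p was 0.00495, with array weights. The last 2 blocked fits were chosen after seeing the data. Array weights, whose estimation stopped before convergence, also called Foxp1 for affinity (-0.52, adjusted p = 0.0277) and Id2 for zone (0.85, 0.0349), and no other alternative did. The cause was not tested.

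The number of the 8 genes called for zone, 1 as reported, was thus 0 in those 6 fits, 2 with array weights and 0 in each fit without 1 array, and that for affinity, 0 as reported, was 1 with array weights. The zone test called 47 of all genes as reported, 135 with the replicate block, 110 with a random block, 80 after quantile normalization, 28 after median centring, 327 with array weights, 87 without set 3 (95 when blocked), 167 and 82 in blocked fits without LZ_high or DZ_high replicate 3, and 12 to 67 over the fits without 1 array (67 without LZ_high replicate 3). Foxo3 was too dim for the filter at percentile 75.

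Estimates that had not passed changed sign in 37 cases outside the fits without 1 array, the largest of them as reported being Tcf12 for affinity in the light zone (-0.45) and the interactions of Id2 (-0.43) and Tcf3 (-0.42). Array weights turned Tcf12 (0.01 for zone, 0.1 at high and -0.08 at low affinity, interaction 0.18), Id3 (-0.03 for zone, -0.08 for affinity in the dark zone), Tcf3 (affinity 0.02 in the light and -0.08 in the dark zone, interaction 0.1), Tcf4 (affinity in the dark zone 0.04, and 0.01 after quantile normalization), Foxo1 (affinity in the light zone 0) and Id2 (interaction 0.07). Without set 3, with or without the block, Tcf12 turned (0.15 for zone, 0.29 at high affinity, affinity in the light zone 0.05, interaction 0.28), as did Id3 (zone at low affinity 0.14), Foxo3 (affinity in the light zone 0.03), Tcf3 (affinity in the dark zone -0.04) and the interactions of Foxo1 (0) and Id2 (0.09). With the block and without LZ_high replicate 3, Tcf12 was 0.2 for zone, 0.37 at high affinity, 0 for affinity in the light zone and 0.33 for the interaction; without DZ_high replicate 3, Tcf12 was 0 for zone and Tcf3 0 for affinity in the dark zone.

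Over the fits without 1 array, estimates that crossed 0 ranged as follows. Tcf12 went from -0.15 to 0.19 for zone, -0.33 to 0.34 at high and -0.09 to 0.11 at low affinity, and -0.37 to 0.3 for the interaction. Id3 went from -0.14 to 0.23 for zone, -0.17 to 0.49 at high and -0.41 to 0.32 at low affinity, and -0.2 to 0.53 both for affinity in the dark zone and for the interaction. Tcf3 went from -0.52 to 0.11 for zone at low affinity and, for affinity, from -0.28 to 0.11 in both zones together, -0.53 to 0.1 in the light and -0.27 to 0.39 in the dark zone. Tcf4 went from -0.26 to 0.11 for zone at low affinity and -0.15 to 0.08 for affinity in the dark zone. Foxo3 went from -0.01 to 0.13 for affinity and -0.24 to 0.03 in the light zone, Id2 from -0.12 to 0.19 for affinity in the light zone and Foxo1 from -0.07 to 0.25 for the interaction.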
